A study of Drosophila melanogaster with 6 samples.

Results

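The methionine tRNAs made by RNA polymerase III (Pol III) were followed in the fly gut. They were taken as every listed transcript whose annotated name begins with tRNA:iMet-CAT, the initiator, or with tRNA:Met-CAT, the elongator. There were 4 such transcripts, 2 of each kind, among 85 nuclear tRNAs. The whole table held 411 transcripts with enough counts to be tested and 120 with fewer. Short RNAs were sequenced from dissected midguts of female Drosophila melanogaster in 6 libraries. The 3 mutant libraries carried the genotype labelled dC53EY22749, a P-element insertion in 1 of the 2 copies of Polr3D, the gene for a subunit specific to Pol III that was earlier named dC53. The 3 wild-type libraries carried the genotype labelled White Dahomey, an outbred wild-type background carrying an eye colour mutation. Per the study's methods, the insertion had been crossed into that same background and the flies were about a week old. Homozygous mutants are not viable, so the mutant carries a partial loss in the whole animal, not in the gut alone.

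A cell uses separate tRNAs for the first and for the later methionines of a protein, although both carry the anticodon CAT and are charged by the same synthetase. The initiator tRNA is delivered by the initiation factor eIF2 to the P site of the small ribosomal subunit, where it finds the start codon. The elongator tRNA is delivered by the elongation factor eEF1A to the A site and reads AUG inside the coding sequence. In both, Pol III is recruited through TFIIIC, which binds promoter boxes lying inside the gene, so the same polymerase makes both.

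Total counts ran from 13465392 to 16891428 per library. Nuclear tRNAs held between 14.5% and 16.1% of the counts in the mutant libraries and between 10.7% and 11.3% in the wild-type libraries, so a level relative to all counts and a share of the tRNA pool need not move together. Polr3D mRNA and the marker mRNAs of gut cell types were not analysed here, so genotype and tissue rest on the labels. In a whole midgut, fewer cells of a type and less RNA per cell cannot be told apart. Nothing in the labels says whether the 3 libraries of a genotype came from separate fly cultures, and p-values then measure only the spread between these samples.

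The annotation (BDGP6) held 12 nuclear methionine tRNA genes, 6 for the initiator and 6 for the elongator, each of 1 exon. Methionine tRNA genes that share a sequence name are listed as a single transcript, so the 4 listed transcripts stand for all 12. The initiator iMet-CAT-1 has 5 genes, and its listed copy is tRNA:iMet-CAT-1-3 (FBtr0072600; 3L, 743723 to 743794, minus strand), in an intron of hng3. The initiator iMet-CAT-2 has 1 gene, tRNA:iMet-CAT-2-1 (FBtr0088465; 2R, 9661225 to 9661296, plus strand), in an intron of Mmp2 on the opposite strand. The elongator Met-CAT-1 has 5 genes, and its listed copy is tRNA:Met-CAT-1-4 (FBtr0075380; 3L, 16349917 to 16349989, plus strand), in an intron of Golgin104 on the opposite strand. The elongator Met-CAT-2 has 1 gene, tRNA:Met-CAT-2-1 (FBtr0073121; 3L, 3121942 to 3122014, minus strand), in an intron of promL.

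The remaining initiator genes lie close together. On 3L, tRNA:iMet-CAT-1-4 and tRNA:iMet-CAT-1-5 face away from each other with 330 bases between them, inside an intron of ome. On 2R, tRNA:iMet-CAT-1-1 and tRNA:iMet-CAT-1-2 are 213 bases apart, and each has 10 other tRNA or 5S rRNA genes within 5000 bases. The elongator genes are more scattered: only tRNA:Met-CAT-1-1, which lies 209 bases from tRNA:Arg-TCT-1-1, has any tRNA or 5S gene within 5000 bases. Which of the 5 copies behind a shared sequence supplied the reads cannot be told apart in these counts.

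The initiator was the more abundant kind in every library, although both kinds have 6 genes. Counts per base of the summed initiator exceeded those of the summed elongator by 1.95-fold at the least and 4.62-fold at the most, with a geometric mean of 2.72-fold over the 6 libraries (higher in 6 of 6, exact sign-flip test, two-sided p = 0.03125, the smallest that 6 libraries can give). Levels of different RNAs also depend on how well each passed demethylation and library preparation, and the part of that in this ratio was not tested.

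Among the 22 isotypes, the elongator was the lowest of all in each of the 6 libraries. Per 100 bases it averaged 756 CPM (counts per 1000000 counts of a library, scaled with TMM, a correction for differences in library composition) and ranged from 642 to 892. The next isotype, Phe, averaged 948 with a range of 848 to 1113, so the ranges overlapped, but Phe lay above Met within every library. The initiator averaged 2147 CPM per 100 bases with a range of 1571 to 3657, and held rank 13 to 16 depending on the library. Its neighbours SeC, at 2262, and Cys, at 1590, had overlapping ranges. The initiator lay above SeC in 3 of 6 libraries and above Cys in 6 of 6.

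**Figure D1:**
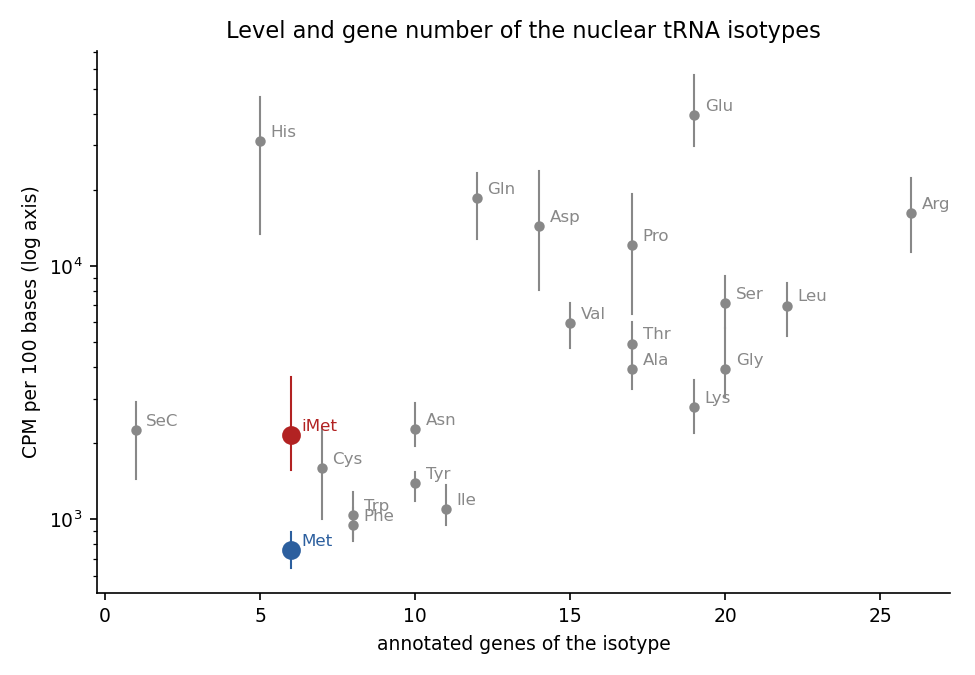
Each point is 1 of 22 nuclear tRNA isotypes, with the number of annotated genes on the x axis and the mean level over 6 libraries on the y axis (TMM-scaled CPM per 100 bases, log axis); lines run from the lowest to the highest library. Initiator (iMet, red) and elongator (Met, blue) both have 6 genes, at means of 2147 and 756, and the elongator is the lowest isotype.

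Within each kind, the division between the sequences was very different. The initiator came almost wholly from iMet-CAT-1. In the mutant, tRNA:iMet-CAT-2-1 had 0, 2 and 2 counts in replicates 1, 2 and 3, and in the wild type it had 1, 2 and 1. It thus held 8 of 140912 initiator counts, or 0.00568% (95% Clopper-Pearson interval 0.00245 to 0.0112%, counting error only). Where the count was 0, in mutant replicate 1, up to 0.210 CPM would still be possible at 3 counts. At this depth tRNA:iMet-CAT-2-1 was at the floor in both genotypes, it did not pass the low count filter, and no fold change is given for it.

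The elongator came from both of its sequences. tRNA:Met-CAT-2-1 held 22.2%, 24.3% and 24.9% of elongator counts in mutant replicates 1, 2 and 3, while the wild-type libraries had 25.3%, 22.2% and 22.5%. The groups overlapped, and the difference of 0.452 percentage points was smaller than the spread (23.8 ± 1.46 against 23.4 ± 1.71, SD, n = 3 each; exact permutation test, two-sided p = 1). Each annotated gene of Met-CAT-2 therefore stood for more counts than a gene of Met-CAT-1, by 1.54-fold on average and by 1.42-fold to 1.69-fold in single libraries (higher in 6 of 6, exact sign-flip p = 0.03125). Salmon, the quantifier used upstream, can share reads between similar sequences, so this division is uncertain.

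Set beside all 84 nuclear tRNA sequence names, the level per gene of the methionine tRNAs ran from rank 23 to rank 83. iMet-CAT-1, at 309 CPM per gene, was the highest of them. Met-CAT-2 at 130 and Met-CAT-1 at 84.4 were ranks 43 and 53, below the median of 131. iMet-CAT-2 was rank 83, at 0.0869. These sequences have nearly the same length (72 bases for the initiator and 73 for the elongator), so length bears little on the order among them.

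The genotypes were compared to ask how each methionine tRNA stands in the gut when Pol III is partly lost. No methionine tRNA passed an adjusted p of 0.10 in edgeR's quasi-likelihood test, out of 3 that could be tested, beside 1.22% of all 411 transcripts. At an unadjusted p of 0.05 there was 1 of 3, the initiator, beside 14.8% of all transcripts. Of the 80 nuclear tRNAs tested, 28 were higher and 2 lower at that p. DESeq2 called 0 of the 3 methionine tRNAs, beside 7.21% of the transcripts it adjusted and 24 of these 80 nuclear tRNAs. With limma-voom 0 of all 411 transcripts were called, with 61 at an unadjusted p below 0.05. All 3 had a positive log2 fold change, with a median of 0.23, beside 0.34 over the 80 nuclear tRNAs tested and -0.052 over all transcripts. The sign is that of TMM scaling and it turned negative for all 3 when libraries were scaled on the total of nuclear tRNAs.

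In mutant replicates 1 to 3, tRNA:iMet-CAT-1-3 had 17312, 26499 and 39113 counts, and the wild-type libraries had 17211, 20058 and 20711 in the same order. In TMM-scaled CPM the mutant libraries stood at 1250.1, 1723 and 2633, and the wild-type libraries at 1131, 1333 and 1205. Mutant replicates 2 and 3 lay above every wild-type library, while mutant replicate 1 lay among them, so the genotypes overlapped. Means were 1869 ± 703 CPM against 1223 ± 102 (SD, n = 3 each). The log2 fold change of 0.61 had a standard error of 0.25, and edgeR gave a p of 0.0354 before and 0.310 after adjustment over all transcripts.

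tRNA:Met-CAT-1-4 had 507, 415 and 433 CPM in the mutant libraries, against 402, 364 and 410 in the wild-type libraries. Every mutant library lay above every wild-type library, whereas the groups overlapped for the other 2 that were tested. Of all 411 transcripts, 18.7% had groups without overlap, and in 8.03% the mutant was the higher. Among the 80 nuclear tRNAs tested, the mutant was the higher without overlap in 24. The gap was narrow, since the lowest mutant library stood at 415.3 CPM and the highest wild-type library at 410.3. The means were 452 ± 48.4 against 392 ± 24.4 CPM (SD, n = 3 each), a log2 difference of 0.20 ± 0.13 (SE; adjusted p = 0.467, edgeR).

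tRNA:Met-CAT-2-1 had 144, 133 and 144 CPM in the mutant libraries, against 136, 104 and 119 in the wild-type libraries. Wild-type replicate 1 lay inside the mutant range, so the groups overlapped. The means were 141 ± 6.15 against 120 ± 16.1 CPM (SD, n = 3 each), a log2 difference of 0.23 ± 0.13 (SE; adjusted p = 0.426, edgeR). Both elongator sequences thus had fold changes of nearly the same size, each within about 2 standard errors of 0.

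**Figure D2:**
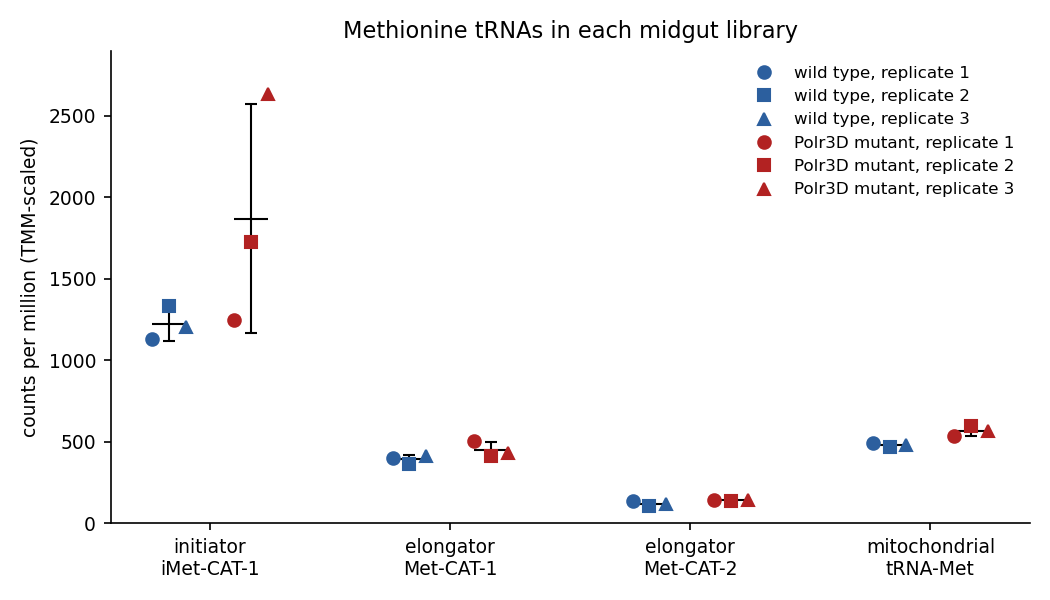
TMM-scaled CPM of the initiator iMet-CAT-1, the elongators Met-CAT-1 and Met-CAT-2 and mitochondrial tRNA-Met in each of 3 wild-type (blue) and 3 mutant (red) libraries; bars are means and SD. The mutant initiator runs from 1250.1 to 2633, mutant Met-CAT-1 lies narrowly above the wild type, and mutant Met-CAT-2 overlaps it. iMet-CAT-2, at the floor, is not drawn.

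Because sequences of a kind can share reads, the counts of each kind were also summed and fitted in the whole table in place of the single transcripts. The initiator sum had a log2 difference of 0.61 ± 0.25 (SE; edgeR adjusted p = 0.309). The elongator sum was 651, 549 and 578 CPM in the mutant libraries, against 538, 468 and 530 in the wild-type libraries, without overlap. Among single transcripts, the mutant was the higher without overlap in 8.03% of all 411 and in 24 of the 80 nuclear tRNAs. The elongator sum had a log2 difference of 0.21 ± 0.13 (SE; edgeR adjusted p = 0.455). Neither passed, beside 1.22% called in this table.

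The initiator value rested on mutant replicate 3. Without it the initiator sum stood at 0.29 on the log2 scale (edgeR adjusted p = 0.443), and without mutant replicate 1 it had 0.84 (adjusted p = 0.140). Over the 15 other settings the adjusted p of the initiator sum ran from 0.140 to 0.820. The elongator sum stayed between 0.14 and 0.29 when single libraries were left out, but had 0.040 when scaled on library totals and 0.023 when scaled on mitochondrial tRNAs. Relative to the median of all transcripts, which such scalings moved by more than 0.1, the initiator sum stood between 0.61 and 0.66 higher and the elongator sum between 0.26 and 0.27 higher under each of the 6 scalings. A scaling moves all transcripts of a library together, so this agreement was nearly fixed in advance and is not separate support.

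**Figure D3:**
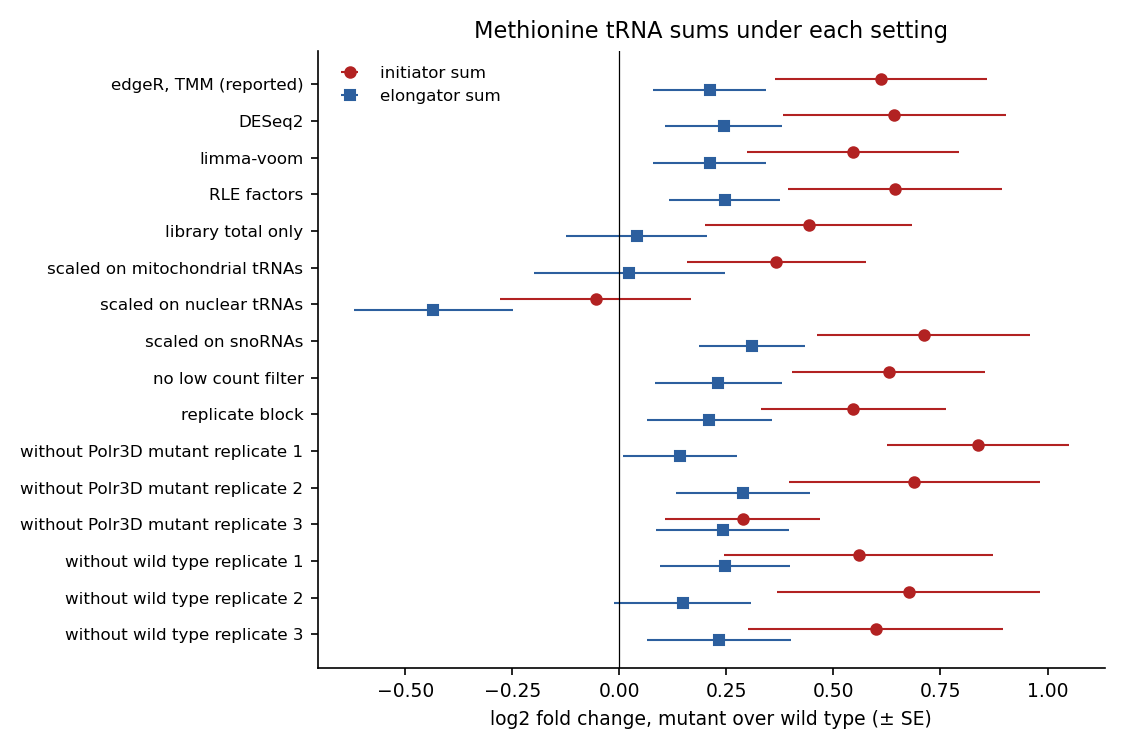
Log2 fold change (mutant over wild type, ± SE) of the initiator sum (red) and the elongator sum (blue) under the reported fit and 15 other settings. Values of the initiator run from -0.056 to 0.84 and those of the elongator from -0.43 to 0.31, and both are negative only when libraries are scaled on nuclear tRNAs.

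The ratio of initiator to elongator within a library does not depend on scaling and compares the kinds directly. For replicates 1 to 3 it was 1.95, 3.18 and 4.62 with the mutant genotype, against 2.13, 2.88 and 2.31 with the wild-type genotype. The mutant held both the lowest and the highest value, so the genotypes overlapped. On the log2 scale the means were 1.61 ± 0.63 and 1.28 ± 0.23 (SD, n = 3 each), a difference of 0.34 with a standard error of 0.38 (exact permutation test, two-sided p = 0.5, where 3 against 3 cannot go below 0.1). Without mutant replicate 3 the difference was 0.041. These libraries did not show that the genotypes differed in this ratio, and with an error of this size they did not show that it was alike.

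Measured as a share of nuclear tRNA counts, the order of the genotypes was different. The elongator held 0.435%, 0.329% and 0.340% of nuclear tRNA counts in mutant replicates 1, 2 and 3, while the wild-type libraries had 0.566%, 0.449% and 0.478%. All mutant libraries lay below all wild-type libraries, with means of 0.368 ± 0.0583% and 0.497 ± 0.0612% (SD, n = 3 each) and a difference of -0.129 percentage points (exact permutation p = 0.1, the smallest possible). The closest pair, mutant replicate 1 and wild-type replicate 2, had overlapping intervals of 0.426 to 0.444% and 0.438 to 0.459% (95%, Clopper-Pearson, counting error only), so the order of these libraries was not resolved at this depth. The share stayed lower in the mutant when any single library was left out, with differences from -0.163 to -0.0951 percentage points. A lower value on this scale was common among all transcripts, most of which are not nuclear tRNAs. With libraries scaled on nuclear tRNAs, edgeR called 319 of 412 transcripts lower in the mutant. The median log2 fold change over all transcripts was then -0.69, against -0.43 for the elongator sum. Nuclear tRNAs are the closer comparison for a share of their pool. Under TMM scaling their median was 0.34, above the 0.20 and 0.23 of the elongators. How many nuclear tRNAs separated the genotypes as shares was not counted.

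The initiator held 0.836%, 1.03% and 1.55% of nuclear tRNA counts in the mutant libraries, against 1.19%, 1.28% and 1.09% in the wild-type libraries. The mutant libraries lay on both sides of the wild-type libraries, with means of 1.14 ± 0.370% and 1.18 ± 0.0947% (SD, n = 3 each; exact permutation p = 0.9). As shares of all counts, in contrast, the elongator held 0.0560 ± 0.00665% in mutant libraries and 0.0544 ± 0.00618% in wild-type ones, which overlapped (SD, n = 3 each; exact permutation p = 0.7). The lower elongator share within the tRNA pool thus went with a nuclear tRNA total that was larger in every mutant library.

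**Figure D4:**
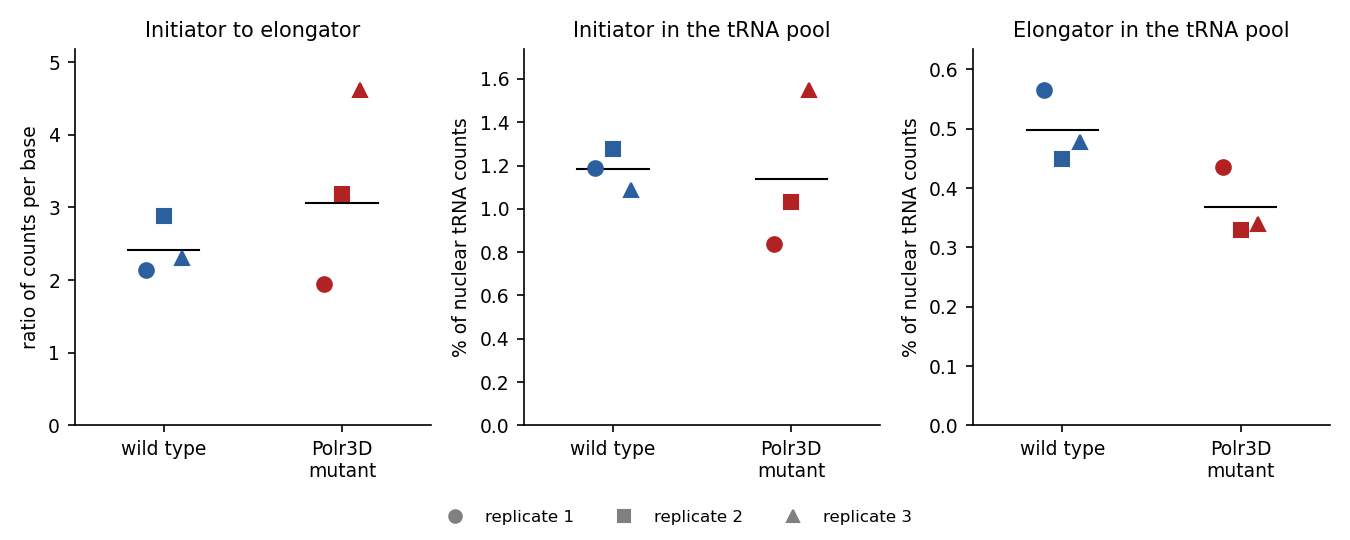
Initiator to elongator ratio of counts per base (left) and the percent of nuclear tRNA counts held by the initiator (middle) and the elongator (right), in each library, with marker shapes for the replicates and lines at the geometric (ratio) or arithmetic mean. Ratios run from 1.95 to 4.62 in the mutant and from 2.13 to 2.88 in the wild type. Of the measures drawn, only the elongator share separates the genotypes.

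The spread between the mutant replicates differed between the kinds. The coefficient of variation of tRNA:iMet-CAT-1-3 was 37.6% over the mutant libraries and 8.35% over the wild-type libraries, and 11 of the 80 nuclear tRNAs tested had a larger one in the mutant, where the median was 20.4%. In the mutant the elongators were steadier, at 10.7% for tRNA:Met-CAT-1-4 and 4.38% for tRNA:Met-CAT-2-1, where 67 and 79 of the 80 had a larger value. In the wild type they were at 6.21% and 13.4%, on either side of the initiator, so that contrast was not seen there. Mutant replicate 3 had 2.11 times the initiator CPM of mutant replicate 1, a ratio exceeded by 4 of the 80, with a median of 1.11. That pair is the initiator's own highest and lowest mutant library, so its place in this order overstates how unusual its spread was. No test was made of these spreads, which rest on 3 libraries each.

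Placed in the order of all 80 nuclear tRNAs by log2 fold change, 21 lay above the initiator. Above tRNA:Met-CAT-2-1 there were 49 and above tRNA:Met-CAT-1-4 there were 53, so both elongators lay in the lower part of the order, under the median of 0.34.

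**Figure D5:**
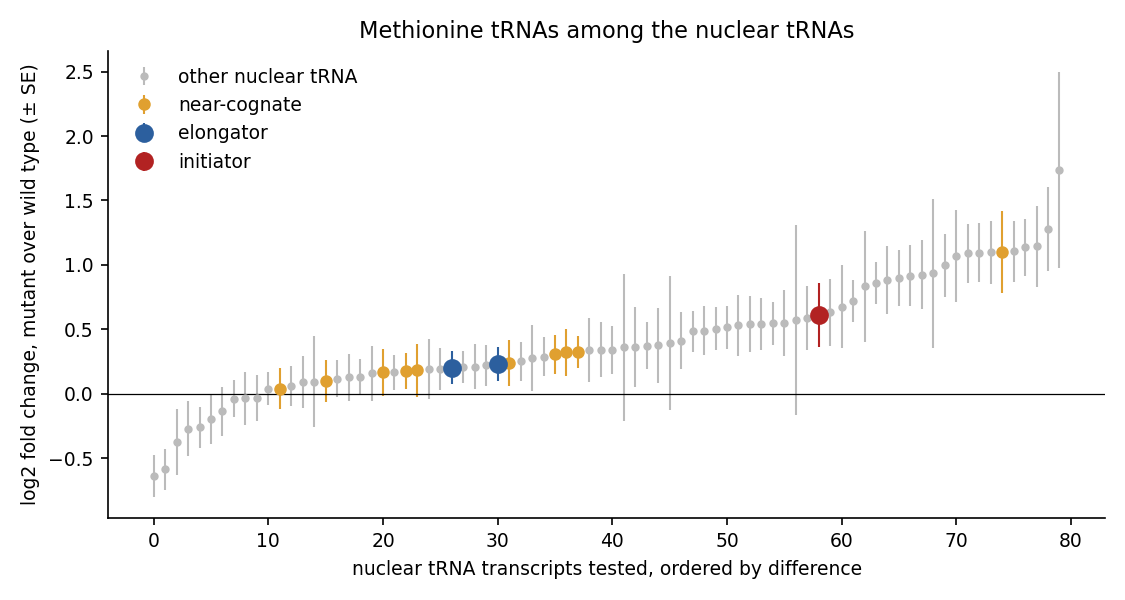
Log2 fold change (mutant over wild type, ± SE, edgeR with TMM) of the 80 nuclear tRNAs tested, in rising order, with the initiator in red at 0.61, the elongators in blue at 0.20 and 0.23, and the near-cognate tRNAs in orange between 0.041 and 1.10. Grey points are the other nuclear tRNAs, which run from -0.63 to 1.74.

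Mitochondria make their own methionine tRNA with a separate polymerase, so mt:tRNA:Met-CAT is a methionine tRNA outside the reach of Pol III. It had 537, 594 and 566 CPM in mutant libraries against 493, 471 and 479 in wild-type ones, with every mutant library above every wild-type library. That held for 5 of the 22 mitochondrial tRNAs and for 8.03% of all transcripts. The log2 difference of mt:tRNA:Met-CAT, 0.23 ± 0.12 (SE; adjusted p = 0.375, edgeR), was about that of the elongators, and neither passed the test. Over the 22 mitochondrial tRNAs, 0 were called by edgeR, beside 1.22% of all transcripts, and 3 were higher at an unadjusted p of 0.05, beside 9.49%. The median log2 fold change was 0.25. DESeq2 called 1, mt:tRNA:Phe-GAA (adjusted p = 0.0893), beside 7.21% of the transcripts it adjusted, and limma-voom called 0.

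The tRNAs whose anticodon differs from CAT by 1 base can compete with the elongator at an internal AUG, and 10 of them were listed and tested. None was called by edgeR at an adjusted p of 0.10. At an unadjusted p below 0.05 there were 2 of 10, both higher in the mutant. Beside them, 9.49% of all transcripts and 28 of the 80 nuclear tRNAs tested were higher at that p. DESeq2 called 1 of 10, tRNA:Arg-CCT-1-3 (adjusted p = 0.0173), and limma-voom called 0. Beside this, DESeq2 called 7.21% of the transcripts it adjusted and 24 of these 80 nuclear tRNAs. All 10 had a positive log2 fold change under TMM scaling, with a median of 0.21 and a range of 0.041 to 1.10, beside a median of 0.34 over nuclear tRNAs. The nuclear tRNAs outside the methionine family, which include these 10, had 5 edgeR calls of 77, all higher.

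Of these near-cognates, tRNA:Arg-CCT-1-3, which reads the arginine codon AGG, had the smallest p. It had 1951, 3989 and 4353 CPM in mutant libraries against 2126, 1491 and 1183 in wild-type ones, so mutant replicate 1 lay inside the wild-type range, as it did for the initiator. On the log2 scale the difference was 1.10 ± 0.32 (SE; adjusted p = 0.180, edgeR). tRNA:Ile-TAT-1-1, which reads the isoleucine codon AUA, had 88.5, 101 and 106 CPM in mutant libraries against 79.2, 78.2 and 78.8 in wild-type ones. These did not overlap, as in 24 of the 80 nuclear tRNAs and 8.03% of all transcripts with the mutant the higher. Its log2 difference was 0.32 ± 0.12 (SE; edgeR adjusted p = 0.299).

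Across the 6 libraries the initiator and the elongators did not follow one another closely. In log2 CPM the Pearson correlation of tRNA:iMet-CAT-1-3 was 0.094 with tRNA:Met-CAT-1-4 and 0.363 with tRNA:Met-CAT-2-1, whereas the 2 elongators had 0.781 with each other. These correlations are descriptions over 6 points that share libraries and scaling factors. Salmon can also share reads between the 2 elongator sequences, and the part of that in their correlation was not tested. Among 326 other transcripts with a mean of at least 10 CPM, the most like the initiator were tRNA:Gly-TCC-2-2 (r = 0.980), the mitochondrial mt:tRNA:Thr-TGT (0.965) and tRNA:Gly-GCC-1-1 (0.958). tRNA:Gly-TCC-2-2 had 263, 367 and 440 CPM in mutant replicates 1, 2 and 3. It was picked by its correlation over these same libraries, so sharing the initiator's order there is not separate evidence of likeness.

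The elongators resembled other tRNAs. tRNA:Met-CAT-1-4 was most like tRNA:Phe-GAA-1-7 (r = 0.960), tRNA:Ser-GCT-2-4 (0.927) and tRNA:Leu-CAG-1-4 (0.925). tRNA:Met-CAT-2-1 was most like tRNA:Trp-CCA-2-2 (0.969), tRNA:Leu-TAG-1-1 (0.959) and the transcript FBtr0075835 (0.958), which had no match in the annotation. None of the 9 transcripts named for likeness passed the edgeR threshold, with adjusted p from 0.120 for tRNA:Ser-GCT-2-4 to 0.610 for tRNA:Phe-GAA-1-7, and 0.363 for tRNA:Gly-TCC-2-2.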

How the data were processed

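The authors selected RNA below about 200 nucleotides, demethylated it and sequenced it. Per the study's methods and the labels, reads were checked with FastQC, trimmed with Cutadapt and quantified with Salmon against all annotated BDGP6 transcripts. What the authors deposited are estimated counts of transcripts below 300 bases, rounded to whole numbers and not scaled for depth, and they can split reads among near-identical tRNAs. Size selection and incomplete demethylation can alter recovery by RNA.

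Groups and replicate numbers came from sample titles. By identifier, 527 transcripts were matched to the BDGP6 annotation (Ensembl release 115) and 4 were not. Counts were fitted in R 4.3.3 with edgeR 4.0.16: filterByExpr (minimum count 10, minimum total 15) kept 411, TMM scaling was applied, and glmQLFTest compared genotypes, with Benjamini-Hochberg adjustment over all transcripts and a threshold of 0.10. Standard errors came from the F statistic. The script was tested on simulated data. Alternatives were DESeq2 1.42.0, limma-voom (limma 3.58.1), 5 other scalings, no filter, a replicate block and each library left out. Ratios and shares were compared by exact permutation, all tests two-sided. At a lowest count of 1566, counting error of the tested methionine tRNAs was at most 4.95% (95%). Replicate libraries all differed by more than counting noise (chi-square over its degrees of freedom, 212 or more).

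Transcripts named are all methionine tRNAs, mitochondrial tRNA-Met, the 3 transcripts most correlated with each tested member (mean of at least 10 CPM), and the called or 2 smallest-p near-cognates. The members and lists were chosen with earlier results of these data known.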

Additional observations from a re-analysis of the deposited data

How the results depend on the processing

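The call of 0 methionine tRNAs was repeated under 14 of 15 other settings. With limma-voom, and without any 1 wild-type library, 0 transcripts of the whole table were called, so these settings could not give another count. Scaled on the total of nuclear tRNAs, 2 were called, both elongators and both lower in the mutant. There the log2 fold change was -0.056 for the initiator sum and for tRNA:iMet-CAT-1-3, -0.43 for the elongator sum, -0.44 for tRNA:Met-CAT-1-4 and -0.42 for tRNA:Met-CAT-2-1, and the median of all transcripts was -0.69. The median was -0.22 with library totals, -0.24 with mitochondrial tRNAs and -0.052 with TMM. Among all transcripts, 5 were called, against 30 with DESeq2, 0 with limma-voom (61 at an unadjusted p below 0.05), 10 with RLE factors, 16 with library totals, 327 scaled on nuclear tRNAs, 10 scaled on snoRNAs, 16 without the low count filter, 14 with the replicate block, and 0 to 47 with single libraries left out (0 without any 1 wild-type library, 47 without mutant replicate 3); the cause was not tested. As a share of all counts, the mutant minus wild-type difference was 0.0465 percentage points for the initiator and 0.00153 for the elongator, opposite in sign to the shares of nuclear tRNA counts.

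Leaving out single libraries gave log2 differences from 0.041 to 0.66 for the initiator to elongator ratio and from 0.29 to 0.84 for the initiator sum. The initiator share of nuclear tRNA counts differed by -0.250 to 0.107 percentage points. Same-numbered libraries of the genotypes share only a number, and their deviations had correlations from -0.26 to -0.023 (mean -0.16). With the replicate block the initiator sum had 0.55 (edgeR adjusted p = 0.359) and the elongator sum 0.21 (adjusted p = 0.602), and 0 methionine tRNAs were called. Depth limits only tRNA:iMet-CAT-2-1, with 0 to 2 counts per library.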

Other observations

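The elongator gene tRNA:Met-CAT-1-1 lies on 2R (11652649 to 11652721, plus strand) with 209 bases between it and tRNA:Arg-TCT-1-1 on the minus strand, a neighbour named here after its values were seen. tRNA:Arg-TCT-1-1, a single-gene arginine tRNA, was among the 5 transcripts that passed the edgeR threshold, at 1380.1 ± 245 CPM in mutant libraries against 761 ± 46.8 in wild-type ones (SD, n = 3 each; edgeR log2 difference 0.86 ± 0.16, SE, adjusted p = 0.0933). The elongator Met-CAT-1, of which this is 1 of 5 genes, had a log2 difference of 0.20 ± 0.13 (SE; edgeR adjusted p = 0.467). The output of the neighbouring copy alone cannot be told apart from that of the other 4.

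The listed initiator copy, tRNA:iMet-CAT-1-3, has no tRNA or 5S rRNA gene within 5000 bases. Its nearest is the near-cognate tRNA:Ile-TAT-1-1, with 25708 bases between them. That tRNA had a log2 difference of 0.32 ± 0.12 (SE; adjusted p = 0.299, edgeR). Its mutant libraries all lay above the wild-type ones, as in 24 of the 80 nuclear tRNAs tested and 8.03% of all transcripts.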
